A study of Microtus ochrogaster with 40 samples.

Results

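Ciliated ependymal-like nuclei made up 110 of the 185995 nuclei kept from 40 prairie voles (Microtus ochrogaster), in tissue of the nucleus accumbens, a share of 0.0591% (95% exact binomial interval 0.0486% to 0.0713%, counting error only). A nucleus here is a droplet barcode with at least 500 unique molecular identifiers (UMIs, 1 per counted RNA molecule) and at most 5% of them from the 13 mitochondrial genes. It was a member when the motile cilia genes Foxj1, Dnah6, Dnah11, Spag17, Cfap44 and Ccdc153 summed to at least 4 UMIs with at least 3 of them detected, and when it held no UMI of Slc17a7, DRD1A, DRD2 or Mog. Slc17a7 marks glutamate neurons, the dopamine receptor genes mark medium spiny neurons and Mog marks oligodendrocytes. Dnah12, which the rule also lists, was not used here, so 6 of its 7 genes were summed. The members were thus chosen by measured counts of these 10 genes, and their levels are given as a description without a test.

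The animals had lived for 16 days with a mate, a partner of the other sex, or with a peer of their own sex. There were 11 females with a mate (female mate), 8 females with a peer (female peer), 11 males with a mate (male mate) and 10 males with a peer (male peer), with 1 library per animal from nuclei isolated on an iodixanol gradient. No allele, drug or transgene is named in the labels, ages are not given there, and how much ventricle wall a tissue punch held is not stated. Partners are not named there either, so cohabiting animals, which may resemble each other, were treated as separate.

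Ependymal cells form the epithelium that lines the brain's ventricles, and the lateral ventricle runs beside the ventral striatum. Most of them carry tufts of motile cilia, whose beat moves cerebrospinal fluid along the wall. A motile cilium is built on a microtubule skeleton, the axoneme, on which dynein motors slide neighbouring doublets, radial spokes and a central pair coordinate the stroke, and intraflagellar transport delivers the parts. The transcription factor Foxj1 switches on many of these genes when a cell commits to motile cilia.

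Kept nuclei per library ranged from 1793 to 8204, and their median depth from 662 UMIs in male mate 2 to 2201 UMIs in male mate 3. Male mate 2 and female peer 1 were the 2 shallowest libraries and held 3 and 2 members. Of 171078 distinct barcode sequences, 21545 occurred in more than 1 library. For 28 members the same barcode also occurred in another library, where it was a member in 0 cases. Doublets, meaning droplets with more than 1 nucleus, were scored by simulation in each library, and 7 of the 110 members were among the 7608 kept barcodes (4.09%) called as such. They were left in, and the counts without them stand in the closing section.

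Members held a median of 1438 UMIs (507 to 22355) and 1119 genes. The other 185885 kept nuclei held a median of 1555 UMIs and 1212 genes, which is close to the members. Their mitochondrial UMIs made up a median of 1.38%, against 0.325% in the other nuclei, and the part of this difference in the values below was not tested. Depth was uneven among members: 9 of them had over 5000 UMIs and together gave 34.5% of all member UMIs. In male peer 1 a single nucleus of 22355 UMIs gave 86.9% of the 25714 member UMIs of that animal. Of the 18 animals with at least 3 members, 4 had 1 nucleus that gave over 50% of their member UMIs. The part from the largest nucleus had a median of 38.5% over the 18. None of these 9 deep members was called a doublet. The simulation paired nuclei of a library at random, so few of its doublets held a member, which limits such calls.

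The name was checked on 16 ependymal marker genes that the rule did not use, in the 18 animals with at least 3 members. Levels are UMIs of a gene per 1000000 UMIs (CPM), the mean of these animals, and ratios are of CPM + 10 in members over CPM + 10 in the other nuclei of the same animals. Of the 16 markers, 15 reached the minimum mean of 10 CPM in either set, and all 15 were at least 4-fold higher in members, with a median log2 ratio of 4.56. Over all 11439 genes at that minimum, 5.91% were at least 4-fold higher and 7.13% at least 4-fold lower, with a median log2 ratio of -0.08. The rule used this same contrast, so these counts describe the members and test nothing. A gene below the minimum in other nuclei passes only through the members and had to be higher there, which holds for many of the genes counted below. The sum of the 16 markers outside the rule ran from 3444 to 9761 CPM in members and from 92.5 to 195 CPM in the other nuclei, and the ranges did not overlap.

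Tmem212, a membrane protein gene used as an ependymal marker, was at 565 ± 324 CPM (SD, n = 18) in members and 0.771 CPM in other nuclei, and had a UMI in 68 of 110 members. Mlf1 was at 772 ± 355 CPM against 21.6 CPM, and Ak7, an adenylate kinase of motile cilia, at 855 ± 318 CPM against 0.951 CPM. Vim, the intermediate filament vimentin, was at 1546 ± 607 CPM (356 to 2509 over the animals) against 43.5 CPM. These 4 genes were higher in members in 17 or 18 of the 18 animals. Rarres2 and Hdc, also on the list, had a UMI in 12 and 10 members. Mia had a UMI in 3 members and did not reach the minimum level.

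**Figure D1:**
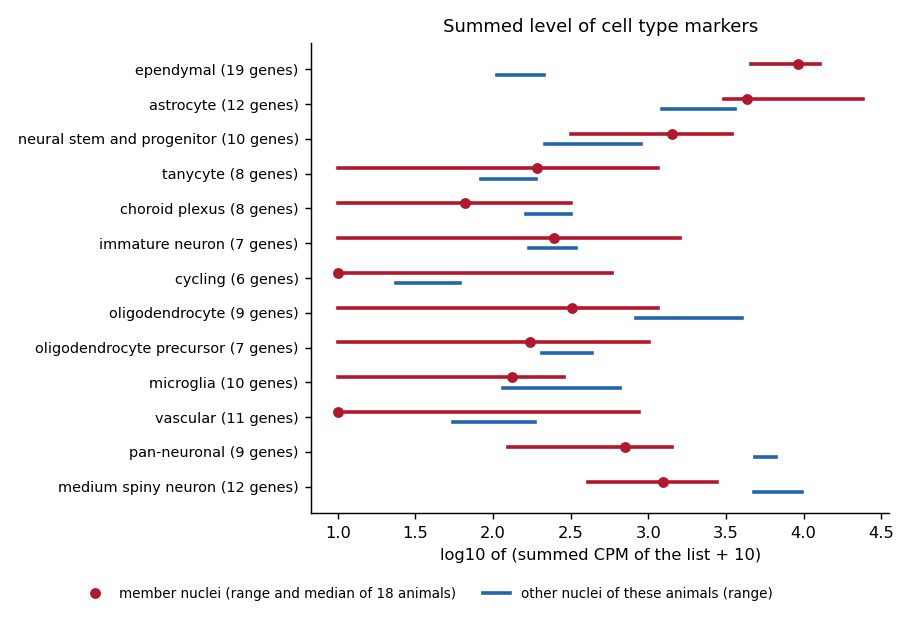
Summed CPM of cell type marker lists, as log10 of the sum + 10, in member nuclei (red, range and median of the 18 animals with at least 3 members) and in the other nuclei of those animals (blue, range); lists include genes the rule used. The ependymal ranges lie apart, the astrocyte ranges overlap, and the pan-neuronal and medium spiny neuron lists lie lower in members.

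Choroid plexus and tanycytes are the other specialised epithelial cells of the ventricle wall and were checked by 8 genes each. Of 8 choroid plexus genes, Ttr, Kl, Prlr, Aqp1 and Htr2c had no UMI in the 110 members, and the 3 that reached the minimum level were lower in members, with a median log2 ratio of -1.31. The limit of a count of 0 over all member UMIs is 12.2 CPM (3 UMIs, counting error only), above the 0.668 CPM of Ttr in other nuclei, so a low level of Ttr would not have been seen. Of 8 tanycyte genes, Rax, Col25a1 and Frzb had no UMI. Of the 4 at the minimum level 3 were higher in members, with a median log2 ratio of 1.20, and the summed list was at 236 CPM against 118 CPM in other nuclei. Lhx2, at 80.9 ± 143 CPM against 10.3 CPM, was the 1 gene at least 4-fold higher.

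Astrocyte genes were mixed: of 12, 4 were at least 4-fold higher than in other nuclei, and the summed list ran from 3078 to 24136 CPM in members and averaged 28761 CPM in astrocyte-like nuclei without the 4 absence genes. Gja1, the gap junction protein connexin 43, was at 2257 ± 1309 CPM in members, 276 CPM in other nuclei and 3708 CPM in astrocyte-like nuclei. Gfap, an intermediate filament of reactive and periventricular glia, was at 370 ± 481 CPM against 12.6 CPM in other nuclei and 134 CPM in astrocyte-like nuclei. The glutamate transporter gene Slc1a3 was at 865 ± 628 CPM in members and 6566 CPM in astrocyte-like nuclei. Its relative Slc1a2 had a UMI in 38 of the 110 members, and its mean there of 911 ± 1896 CPM (SD, n = 18), against 9931 CPM in astrocyte-like nuclei, rests on male mate 3, at 8045 CPM. The median was 338 CPM, and the mean without that animal was 491 ± 671 CPM (n = 17). Astrocyte-like nuclei were chosen by at least 4 UMIs from at least 3 of 7 genes, Gja1, Slc1a2 and Slc1a3 among them, so their high levels of these 3 genes were set by that choice. Gfap was not one of the 7. By the same rule, 54 of the 110 members also counted as astrocyte-like, and by a like rule on other genes 8 counted as immature neuron-like. Among the other 185885 kept nuclei, with or without an absence gene, 26575 counted as astrocyte-like. Immature neuron-like nuclei outside the members were a median of 0.693% of kept nuclei over the 40 animals.

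Neuronal genes were low, in a set from which any nucleus with DRD1A, DRD2 or Slc17a7 had been left out. Of 9 pan-neuronal genes 8 were at least 4-fold lower than in other nuclei, and of 10 medium spiny neuron genes outside the rule 5 were. Snap25, a protein of synaptic vesicle release, was at 150 ± 158 CPM in members and 1828 CPM in other nuclei. Ppp1r1b, the striatal phosphoprotein DARPP-32, was less reduced, at 503 ± 334 CPM against 918 CPM, and had a UMI in 60 members. Csf1r of microglia had no UMI in any member. The part of free RNA from lysed cells in these low values was not tested.

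Among the rule genes, the dynein heavy chains Dnah6 and Dnah11 were detected in 101 and 100 of the 110 members, with 431 and 424 UMIs. Spag17, of the central pair, was detected in 79 members, Foxj1 in 73 and Cfap44 in 68. Ccdc153 was detected in only 15 members, yet those 21 UMIs were 58.3% of all its UMIs in kept nuclei. Foxj1 (ENSMOCG00000017508) had a UMI in 66.4% of members, and in 0.866% of the 34408 nuclei with at least 2 UMIs of DRD1A and DRD2 (D1/D2 neuron nuclei), whose median depth of 2374 UMIs was higher than that of members. Members held 14.5% of all Foxj1 UMIs, so most Foxj1 UMIs of kept barcodes were counted outside the members, at 3.47 CPM there. The part of free RNA in these was not tested.

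The sum of the rule genes had a median of 8 UMIs and ranged from 4 to 150. Motile cilia genes outside the rule were counted per nucleus as a measure the rule did not use. These 94 genes had a median of 45.5 UMIs per member, with a lowest of 10 and a highest of 859, and a median of 2 UMIs in other kept nuclei. The sets overlapped: 6071 of the other 185885 nuclei also had at least 10, and the highest of them had 1084. Pooled, they gave 31.0 per 1000 UMIs in members, 1.61 in other nuclei, 1.78 in astrocyte-like nuclei and 1.73 in D1/D2 neuron nuclei. The 37 members without a Foxj1 UMI were at 32.6 per 1000 and the 73 with one at 30.6 per 1000. The former were shallower (median 937 against 1701 UMIs), and a rule of fixed counts admits a shallow nucleus only at a high level of rule genes.

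At the edge of the rule, the 14 members with a sum of exactly 4 had a median of 24.5 such UMIs and 19.1 per 1000. Just outside, 8 nuclei with 3 UMIs from 3 rule genes had a median of 22 and 17.2 per 1000, and 17 nuclei with at least 4 UMIs from fewer than 3 genes had 37 and 34.0 per 1000. The 30 nuclei with 3 UMIs from at least 2 rule genes, these 8 among them, had 18 and 12.5 per 1000. A further 23 nuclei met the sum but held a UMI of an absence gene. Those 23 had a median depth of 4556 UMIs, 22.6 motile cilia UMIs per 1000, and 7 of them were called doublets.

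**Figure D2:**
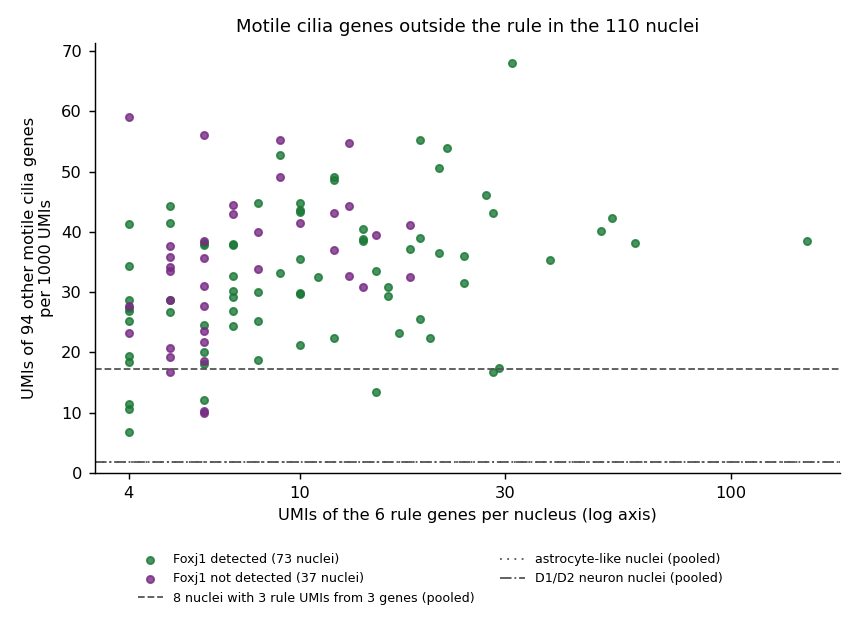
Each point is 1 of the 110 members: UMIs of the 6 rule genes (log axis) against UMIs of 94 other motile cilia genes per 1000 UMIs, coloured by Foxj1 detection; lines give pooled values of 3 other sets. All points lie at or above 6.77 per 1000, and the pooled values of astrocyte-like and D1/D2 neuron nuclei are 1.78 and 1.73. Single nuclei of those 2 sets are not drawn and held up to 66 and 501 such UMIs.

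The motors of the axoneme had the highest median ratio of the ciliary gene groups. All 5 axonemal dynein heavy chains outside the rule that reached the minimum level were at least 4-fold higher in members, with a median log2 ratio of 5.83. Dnah5, of the outer dynein arm, was at 1928 ± 1087 CPM (SD, n = 18, 533 to 4524) against 17.2 CPM in other nuclei. The inner arm chains Dnah10, Dnah1 and Dnah3 were at 757 ± 391, 658 ± 351 and 587 ± 343 CPM, against 1.54, 1.93 and 0.529 CPM. Dnah2 was at 349 CPM in 51 of 110 members. Dnah8 and Dnah17, which in mammals serve mainly the sperm tail, had no UMI in any member, where a count of 0 allows up to 12.2 CPM.

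Intermediate and light chains, which anchor and regulate the motors, followed: 6 of 7 were at least 4-fold higher, with a median log2 ratio of 4.57. Dynlrb2 was at 1026 ± 704 CPM (162 to 2631) against 2.04 CPM, Dnai3 at 595 ± 365 CPM against 0.988 CPM, and Dnai1, of the outer arm, at 562 ± 443 CPM against 5.36 CPM. The exception was Dnal1, at 167 ± 193 CPM against 73.5 CPM. Factors that assemble dyneins in the cytoplasm or dock them on the doublet had 11 of 16 at least 4-fold higher and a median of 2.78. Odad2 of the docking complex was at 475 ± 182 CPM against 1.82 CPM, and Zmynd10, an assembly factor, at 166 ± 130 CPM against 0.609 CPM.

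The tether and nexin-dynein regulatory complex, which hold the dyneins in register, had 11 of 14 genes at least 4-fold higher (median log2 ratio 3.69). Cfap43 (ENSMOCG00000020363), a tether gene, had the highest ratio of any gene outside the rule with at least 30 member UMIs. It was at 1515 ± 652 CPM (SD, n = 18, 0 to 2804) in members and 2.10 CPM in other nuclei, a log2 ratio of 6.98, and had a UMI in 92 of 110 members. The members, 0.0591% of nuclei, held 40.0% of all Cfap43 UMIs. Its rule partner Cfap44 was at 771 ± 423 CPM against 1.24 CPM. Ccdc39, which sets the spacing of the repeats along a doublet, was at 736 ± 316 CPM against 17.7 CPM, and Drc1 at 500 ± 229 CPM against 43.9 CPM.

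Of 14 radial spoke genes, which with the central pair coordinate the beat, 13 reached the minimum level and these 13 were at least 4-fold higher, with a median of 3.11, while Rsph6a had no UMI in any member. Of 14 central pair genes outside the rule 13 were at least 4-fold higher, with a median of 3.46. Rsph4a, of the spoke head, was at 459 ± 279 CPM against 4.59 CPM. Hydin, of the central pair, was at 2310 ± 940 CPM against 137 CPM, and Cfap54 at 4335 ± 2186 CPM against 462 CPM. UMIs of both were thus common outside the members too, and the part of free RNA in them was not tested. Members held 1.20% of Hydin and 0.566% of Cfap54 UMIs. Cfap65 and Cfap47 had larger parts of their UMIs in members, 5.78% and 20.2%, though most of their UMIs lay outside the members too.

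Proteins inside the doublet microtubules and tektins had 19 of 20 genes at least 4-fold higher (median 3.82). Enkur was at 629 ± 336 CPM against 6.77 CPM, and Efhb, at 314 ± 284 CPM against 0.278 CPM, had 47.2% of its UMIs in members. Cfap20, the exception, was at 260 ± 253 CPM against 117 CPM. Adenylate kinases and ciliary kinases, which supply and regulate energy use in the axoneme, had 8 of 10 at least 4-fold higher. Members held 45.5% of the UMIs of Ak7.

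The transport machinery that all cilia share had lower ratios. Of 26 intraflagellar transport genes 5 were at least 4-fold higher, with a median log2 ratio of 1.26, and of 22 transition zone and BBSome genes 6 were, with a median of 1.46. Dync2h1, the motor that returns cargo to the cell body, was at 864 ± 326 CPM against 367 CPM, and Wdr35, of the A complex, at 519 ± 299 CPM against 91.1 CPM. Tmem67 and B9d1, of the gate at the cilium's base, were at 750 ± 487 and 237 ± 150 CPM against 121 and 26.2 CPM. Ahi1, at the same gate, was at 649 ± 278 CPM against 800 CPM.

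Regulators of the multiciliated state had low levels, and 9 of 13 outside the rule reached the minimum. These 9 had a median log2 ratio of 1.68, and 3 were at least 4-fold higher. Rfx2, a transcription factor of ciliary genes, was at 142 ± 173 CPM against 2.28 CPM, and Deup1, of the deuterosome on which centrioles multiply, at 118 ± 134 CPM against 0.430 CPM. Rfx3 was at 149 ± 143 CPM against 60.4 CPM. Gmnc and Trp73, which act early in the programme, had a UMI in 6 and 5 members, Ccno in 1, Plk4 in 3, and Mcidas and Foxn4 in 0.

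**Figure D3:**
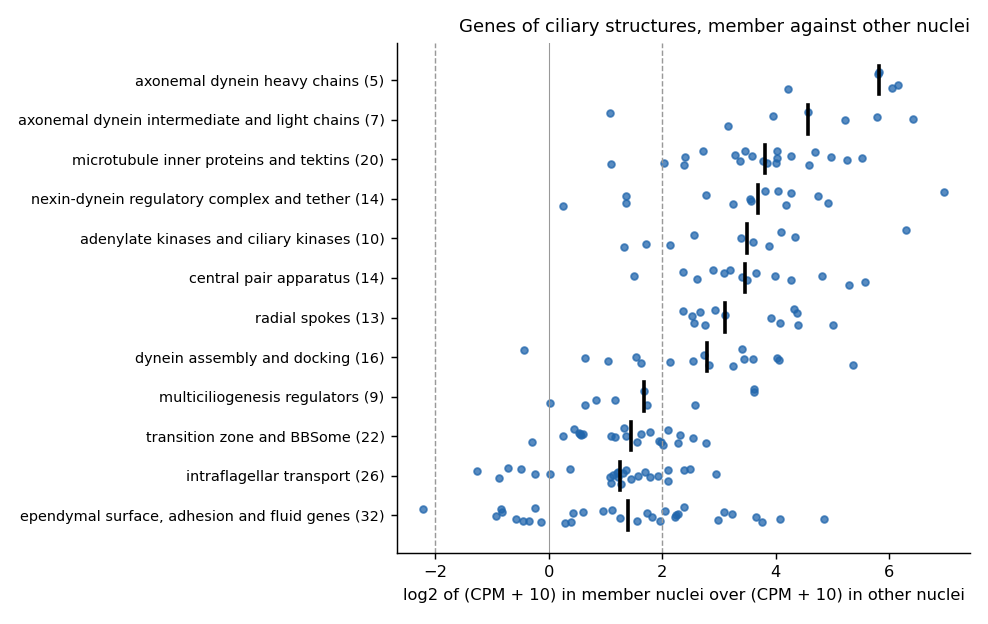
Log2 of CPM + 10 in members over CPM + 10 in other nuclei of the same 18 animals, 1 point per gene outside the rule at the minimum level, with the number of genes in brackets, the group median as a bar and 4-fold marked by dashed lines. Dynein heavy chains have a median of 5.83 and intraflagellar transport genes one of 1.26.

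Of the 25 genes with the largest ratios outside the rule, the remaining named ones were Odf3b, Ccdc146, Hoatz, Tsnaxip1, Morn3, Ccdc180, Gm17455, Prelp, Efcab1, Cfap161, Cfap299, Adgb, Lrp2, Ccdc170 and the unnamed ENSMOCG00000013173. Several belong to cilia or the sperm tail by name, and their log2 ratios ran from 5.43 for Ccdc170 to 6.57 for Odf3b. Prelp and Lrp2 are not axonemal. Prelp, a proteoglycan of the extracellular matrix, was at 795 ± 352 CPM against 6.44 CPM in other nuclei and 64.9 CPM in astrocyte-like nuclei. Lrp2, the endocytic receptor megalin, was at 479 ± 320 CPM against 1.26 CPM, with a UMI in 43 members.

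Genes of the ependymal surface, adhesion and fluid handling were divided: of 32, 12 were at least 4-fold higher, 1 at least 4-fold lower, and the median log2 ratio was 1.41. Sox9, a glial transcription factor, was at 655 ± 294 CPM against 39.0 CPM, and Igfbp5 at 584 ± 352 CPM against 52.9 CPM. Aqp4, the water channel of astrocytes and ependyma, was at 346 ± 214 CPM against 66.4 CPM, and Celsr1, a planar polarity cadherin, at 319 CPM against 16.0 CPM. Celsr2, its relative, was 4-fold lower or more, at 51.0 CPM against 273 CPM. Chosen after their values were seen, the ezrin gene Ezr, which links actin to the cell membrane, was at 717 ± 368 CPM against 18.1 CPM. Anxa2 was at 419 ± 391 CPM against 2.22 CPM, and the homeobox gene Msx1 at 266 ± 231 CPM against 1.06 CPM.

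Of the genes with the lowest ratios, 3 are named here, again after their values were seen. Dgki, a diacylglycerol kinase, had no UMI in any member and was at least 33.9-fold lower than in other nuclei, and Lhfpl3 at least 17.8-fold lower (limit of 3 UMIs over all members, pooled). Grin1, a subunit of the NMDA receptor, was at 48.4 CPM against 1385 CPM.

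Members were found in 30 of the 40 animals, at 1 to 8 nuclei each. In the 10 animals without one, a count of 0 allowed a share of up to 0.0442% to 0.110%, depending on the number of kept nuclei. This limit holds for nuclei that meet the whole rule: in 2 of the 10 animals, 1 nucleus met the sum but held an absence gene. That of male peer 8 had 51342 UMIs, of which 151 were of all 6 rule genes and 2 of absence genes. It gave 56 of the 58 Tmem212 UMIs of that animal and was not called a doublet, a call with the limit given above. That of female mate 8 had 4 rule UMIs and 1 UMI of an absence gene. At 1 common share the animals would have held 1.06 to 4.85 members on average. The observed counts varied more than counting error at 1 common share gives: the Pearson chi-square divided by its 39 degrees of freedom was 3.79, where a value near 1 marks counting error alone.

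Shares overlapped between all groups. In female mates the share of kept nuclei ran from 0 to 0.219% with a median of 0.0547% and a mean of 0.0738% ± 0.0819 (SD, n = 11), and 4 of 11 animals had no member. In female peers it ran from 0 to 0.368% with a median of 0.0524% and a mean of 0.0940% ± 0.121 (SD, n = 8). In male mates it ran from 0 to 0.138% with a median of 0.0327% and a mean of 0.0558% ± 0.0513 (SD, n = 11). In male peers it ran from 0 to 0.223% with a median of 0.0223% and a mean of 0.0697% ± 0.0821 (SD, n = 10). The SD was close to or above the mean in each group.

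The pairing difference, mate minus peer averaged over the sexes, was -0.0170 percentage points (exact two-sided permutation p 0.545, adjusted p 0.866 over 5 tests). Female minus male was 0.0212 percentage points (exact permutation p 0.462, adjusted p 0.866), and the difference between the sexes in pairing, females minus males, was -0.00640 (exact permutation p 0.910). Within females the pairing difference was -0.0202 and within males -0.0138 percentage points (exact permutation p 0.692 and 0.647). None was larger than the spread between animals. Without female peer 3, whose 8 members gave the highest share, the pairing difference was 0.00254, that within females 0.0189 and the difference between the sexes in pairing 0.0327 percentage points, each with the opposite sign. The difference of females minus males was then 0.00163 percentage points (exact permutation, adjusted p 0.943).

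**Figure D4:**
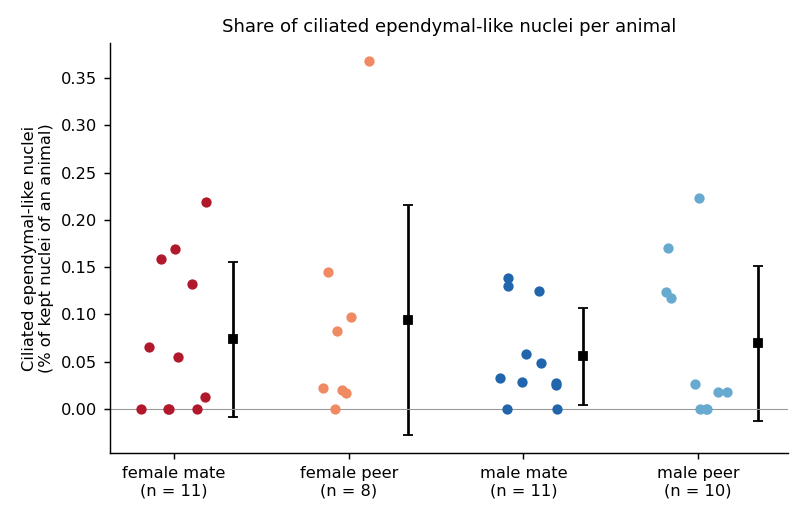
Share of ciliated ependymal-like nuclei among kept nuclei, 1 point per animal (jittered sideways), with the group mean and SD as black squares and bars. Female peer 3, at 0.368%, stands apart, and all groups reach down to 0.

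Across the 40 animals the share was set beside 6 other measures of a library, with Benjamini-Hochberg adjustment over the 6. It was lower where more nuclei were kept, the number by which the share itself is divided: Pearson r was -0.496 (permutation p 0.00105, adjusted p 0.00315) and Spearman rho -0.370 (adjusted p 0.0585). Without the 2 animals farthest from the median number of kept nuclei r was -0.498, and without female peer 3 it was -0.433 (permutation, adjusted p 0.0332). The other shares belong to the same whole as the share of members, so they are not free to vary independently.

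The share rose with that of nuclei that held cycling markers, at least 4 UMIs from at least 3 of 6 genes such as Mki67 and Top2a (r 0.572, permutation p 0.00085, adjusted p 0.00315; rho 0.311, adjusted p 0.0996). It also rose with the share of immature neuron-like nuclei, chosen in the same way on genes such as Dcx and Dlx1 (r 0.530, adjusted p 0.00390; rho 0.412, adjusted p 0.0544). Female peer 3 was highest in all 3 shares, with 0.874% cycling and 3.59% immature neuron-like nuclei. Without it r was 0.311 for cycling (adjusted p 0.159) and 0.259 for immature neuron-like nuclei (adjusted p 0.220). Without the 2 animals farthest from the median, female peer 3 among them both times, r was 0.429 (adjusted p 0.0199) for cycling and 0.187 (adjusted p 0.394) for immature neuron-like nuclei, so Pearson's r for the latter rests on those 2. Spearman's rho without female peer 3 was 0.257 for cycling and 0.366 for immature neuron-like nuclei. After thinning to 1000 UMIs, with shallower nuclei left out and female peer 3 kept, r was 0.530 (adjusted p 0.00582) for cycling and 0.463 (adjusted p 0.00796) for immature neuron-like nuclei. For astrocyte-like nuclei r was 0.260 (adjusted p 0.154), for nuclei with Slc17a7 0.0408, and for the median depth -0.0307 (adjusted p 0.844 for both).

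**Figure D5:**
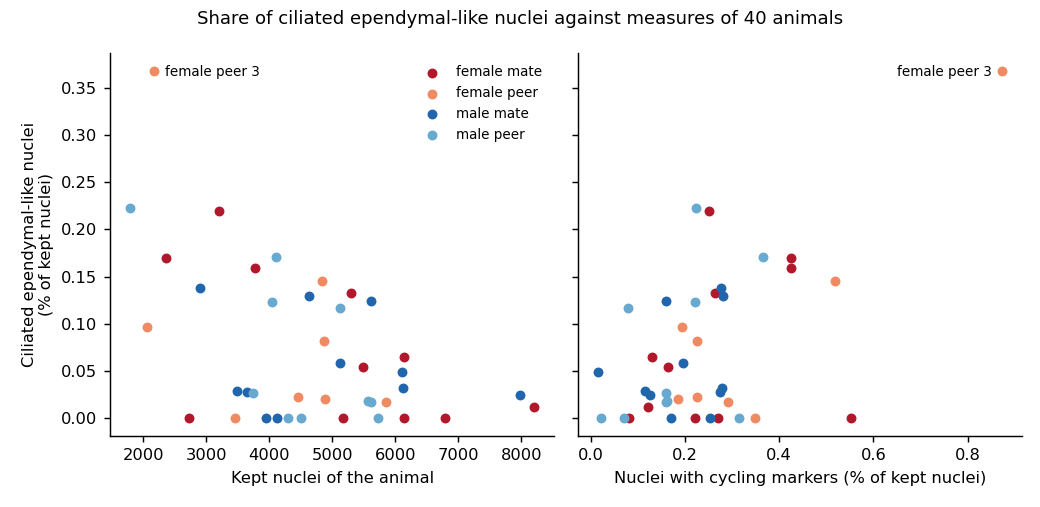
Share of ciliated ependymal-like nuclei against the number of kept nuclei (left) and the share of nuclei with cycling markers (right), 1 point per animal, coloured by group. Shares fall with the number of kept nuclei (r -0.496), and female peer 3 lies at the top of both panels.

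The given marker 1700094D03Rik (ENSMOCG00000002986) is a gene known by a clone name and was not part of the sum. It was at 271 ± 297 CPM (SD, n = 18, 0 to 1050) in members and 0.882 CPM in other nuclei, with 89 UMIs in 31 of 110 members. In members of female peers it was at 401, 525.6 and 243 CPM in animals 2, 3 and 8, and in those of male peers at 1050, 368, 533 and 565 CPM in animals 1, 2, 7 and 10. In members of female mates it was at 0 in animals 1, 2, 5 and 9, at 590 CPM in animal 3 and at 286 CPM in animal 11. In those of male mates it was at 0 in animals 2, 3 and 7, at 202 CPM in animal 8 and at 121 CPM in animal 9. Female mates 3 and 11 lay within the range of these peers, and male mates 8 and 9, with 1 UMI each, lay below it. In female mate 3, 14 of the 15 UMIs of this gene lay in 1 nucleus of 14917 UMIs, and female mate 11 had 4 UMIs. At 0 UMIs the 7 other mates allow levels of up to 198 CPM in male mate 7 to 1722 CPM in male mate 2. For 6 of the 7 this limit of 3 UMIs lies above the lowest peer, female peer 8 at 243 CPM. A level below all of these peers was thus not detectable in those 6. The limits of female mates 2 and 5, 252 and 346 CPM, lie below all of these peers but female peer 8. Those of female mate 1 and male mate 3, 485 and 473 CPM, lie below female peer 3 and male peers 1, 7 and 10. That of female mate 9, 923 CPM, lies below male peer 1 alone. Among the animals with 1 or 2 members, 3 of 5 mates and 3 of 7 peers had a UMI of this gene in them. These counts are at unlike depth, since member UMIs ran from 1282 to 15470 in these mates and from 584 to 5473 in these peers. The gene did not pass the low-count filter of the expression test, and these levels have no test.

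Over all kept nuclei of an animal, the level of 1700094D03Rik in female mates averaged 0.731 ± 0.688 CPM (SD, n = 11), female peers 1.45 ± 1.14 CPM (n = 8), male mates 0.605 ± 0.258 CPM (n = 11) and male peers 2.28 ± 2.98 CPM (n = 10). Without the member nuclei these means were 0.548 ± 0.304, 1.05 ± 0.858, 0.535 ± 0.273 and 1.22 ± 0.792 CPM. That remainder still holds the 23 nuclei that met the sum but had an absence gene, 13 of which gave 87 UMIs of 1700094D03Rik. Without these as well, a setting chosen after seeing the data, the means were 0.485 ± 0.222, 0.572 ± 0.140, 0.488 ± 0.256 and 0.735 ± 0.357 CPM. Male peer 1 was highest, at 10.3 CPM, and at 1.34 CPM without its 4 members. There, 25 of the 31 UMIs of this gene lay in 1 nucleus, the deep one of 22355 UMIs.

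Expression inside the members was compared over the 18 animals with at least 3 of them: 6 female mates, 3 female peers, 5 male mates and 4 male peers. Their summed member UMIs ran from 1742 to 25714 with a median of 8462, and 108 genes passed edgeR's filter on low counts. They include 5 rule genes, which stayed in the adjustment but whose own differences are not read. No gene was called at an adjusted p under 0.05 in any of the 5 comparisons, a share of 0% in each. By edgeR, 4 genes had an unadjusted p under 0.05 for pairing, 2 for sex, 2 for the difference of the pairing differences, 1 for pairing in females and 5 for pairing in males. DESeq2 also called 0, with 5, 3, 2, 3 and 5 genes under 0.05. In simulated counts for pairing, edgeR called 2 of 11 genes changed 2-fold, so differences of that size could be missed here.

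The lowest adjusted p, 0.185 by edgeR, belonged to Ckb and Slc1a2 for pairing in males. Ckb (ENSMOCG00000014242), the brain form of creatine kinase, was at 574 in male mate 2, 1420 in male mate 3, 1518 in male mate 7, 1214 in male mate 8 and 1937 CPM in male mate 9. In male peers it was at 4511 in animal 1, 1596 in animal 2, 4089 in animal 7 and 5001 CPM in animal 10. The groups overlapped only through male peer 2, and the log2 difference of mates minus peers was -1.34 (SE 0.42). Here and below, SE is the size of a difference divided by the square root of edgeR's F statistic, not a separate estimate. Female mates were at 2658 ± 776 CPM (SD, n = 6) and female peers at 3927 ± 578 CPM (SD, n = 3), and over both sexes the pairing difference was -0.80 (SE 0.29, edgeR adjusted p 0.651). The value of male mate 2 rests on 1 UMI, and in male peer 1 a single nucleus gave 86.9% of the member UMIs. With 1 male or 1 female peer left out at a time, the lowest edgeR adjusted p of any gene for pairing in males varied. It ran from 0.0713 without male mate 8 to 0.982 without male mate 7, and was 0.954 without male peer 1.

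Slc1a2 was at 2870 in male mate 2, 8045 in male mate 3, 330 in male mate 7, 202 in male mate 8 and 121 CPM in male mate 9. The male peers lay between 123 and 403 CPM, overlapping the other 3 male mates. The log2 difference was 3.08 (SE 0.95), and without either male mate 2 or male mate 3 the gene no longer passed the filter on low counts. The summed list of 12 astrocyte genes was also highest in male mate 3, at 24136 CPM, next to 8611 CPM in the second highest male mate and 3200 to 6378 CPM in male peers. All 12 astrocyte genes had UMIs in members, and their part in the Slc1a2 values was not tested.

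Other genes with the lowest p in a comparison were also short of the threshold. H3f3b, a gene of histone H3.3, had a log2 pairing difference of -0.90 (SE 0.34, edgeR adjusted p 0.651), and Dync1h1, the heavy chain of cytoplasmic dynein, one of 0.80 (SE 0.34, edgeR adjusted p 0.853). For sex, Slc1a3 was -0.91 (SE 0.38), Dync1h1 -0.79 (SE 0.34) and Sparcl1 -0.67 (SE 0.34), with lower values in females (edgeR adjusted p 0.974 for each). For pairing in females, Cst3 was 1.59 (SE 0.76), Iqgap2 1.45 (SE 0.75) and ENSMOCG00000015550 -0.89 (SE 0.46), each at an edgeR adjusted p of 0.994. For pairing in males, H3f3b was -1.39 (SE 0.50, edgeR adjusted p 0.353). For the difference between the sexes in pairing, ENSMOCG00000000918 was 2.56 (SE 0.98) and Slc1a2 -3.06 (SE 1.37). The mitochondrial ND4L was 1.71 (SE 0.85), and each of these genes had an edgeR adjusted p of 0.971. Nuclei were kept only with at most 5% mitochondrial UMIs, which limits the level of ND4L in members. The difference of ND4L is therefore not read. The common biological coefficient of variation, the relative spread between animals beyond counting error, was 0.438.

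Of the genes on the lists for the axoneme, transport, the cilium's base, kinases and regulators that lay outside the rule, 8 had enough UMIs to be tested. None of their 40 tests by edgeR had an unadjusted p under 0.05, and the lowest edgeR adjusted p was 0.909. The log2 pairing difference was 0.42 (SE 0.35) for Hydin, 0.49 (SE 0.36) for Cfap54, 0.08 (SE 0.40) for Dnah5 and -0.11 (SE 0.34) for Cfap43. The differences of Dnah5 and Cfap43 were smaller than their SE, and those of Hydin and Cfap54 larger, which restates whether the F statistic was below or above 1. Odf3b, Ccdc146, Tsnaxip1, Morn3 and Mlf1, named above, are on none of these lists and were tested as well, and none had an unadjusted p under 0.05 by edgeR in any comparison. Their log2 pairing differences ran from -0.33 (SE 0.38) for Odf3b to 0.64 (SE 0.38) for Ccdc146.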

How the data were processed

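Nuclear RNA of 40 nucleus accumbens samples, 1 animal each, was measured with 10x Genomics droplets. The authors deposited sparse matrices of unnormalized UMI counts, made with Cell Ranger 3.1.0 per the submitters' processing notes. The genome build, annotation and rule for choosing barcodes are not given in the sources used here. All libraries list 19130 genes, 3807 of them without a symbol, and 13332 of 19129 distinct names matched symbols of the RefSeq table of assembly MicOch1.0. The deposited files hold 194518 barcodes.

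Groups came from the labels. Members were found by the rule given above, and the rule, the gene lists and the tests were chosen with earlier results of these data known. Genes were named by a rule: the rule genes, the given markers, the 25 highest ratios outside the rule with at least 30 member UMIs, up to 4 genes per list by level, and the 3 lowest p per comparison. Others were named for their values, such as genes with few or no member UMIs and the exceptions within a list. Only for some of them does the text say that they were chosen after their values were seen.

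Shares were compared by exact two-sided permutation within the levels of the other factor, relations by 100000 resamples, both adjusted by Benjamini-Hochberg. Expression was tested on UMIs summed per animal with the quasi-likelihood test of edgeR 4.0.16 (R 4.3.3; TMM factors, 1 mean per group, adjusted p under 0.05), and DESeq2 1.42.0 was an alternative. At least 5 members per animal would have kept 2 female peers, so the planned minimum of 3 members applied. Ratios used a pseudocount of 10 CPM. The edgeR script was tested on simulated counts of 108 genes with 1 common spread, 11 of them changed between mates and peers. At 2-fold it recovered 2 of the 11, with 2 false calls. At 4-fold it recovered 11 with 1 false call, and at 8-fold 11 with 0. Doublets were scored in Python 3.11.15 (scikit-learn 1.9.0) at an assumed rate of 0.8% of barcodes per 1000 barcodes. Alternatives covered thinning to 1000 UMIs, doublets, looser and stricter rules, pseudocounts, filters and left-out animals.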

Additional observations from a re-analysis of the deposited data

Results flagged for a closer look

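In female peers the share of ciliated ependymal-like nuclei in female peer 3, 0.368%, lay far above the next animal, at 0.145% (n = 8). It rests on 8 of 2175 kept nuclei, with an exact 95% interval of 0.159% to 0.723%, and the same animal had the highest shares of cycling and immature neuron-like nuclei. The interval of the next animal, female peer 8, was 0.0583% to 0.299%, which overlaps it. This was the 1 value found among 38 sets of 4 to 10 animals searched. Chance alone gives such a value in about 5% of sets if values are normally distributed. The shares rest on small counts, with 10 of 40 animals at 0, so the 5% need not hold for them. Foxj1 and Spag17, whose levels in members the rule itself sets in part, were left out of this search after their values had been seen.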

How the results depend on the processing

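Of the 5 share differences, none passed the threshold under any alternative. Without female peer 3, an alternative chosen after seeing the data, the difference changed sign for pairing (0.00254), for the difference between the sexes in pairing (0.0327) and for pairing in females (0.0189 percentage points). That between the sexes fell to 0.00163. For pairing in males the sign changed after thinning every barcode to 1000 UMIs (0.00113), with a rule sum of at least 6 (0.000715) and on the log10 scale (0.05005). Members numbered 52 after thinning, 103 without doublets, 84 with a sum of at least 6, 156 with a sum of at least 3 from 2 genes, 133 without the absence criterion, 115 without the mitochondrial limit and 105 without the 2 shallowest libraries.

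The counts of genes at least 4-fold higher and lower, 676 and 816, depended on the pseudocount by construction: 1277 and 1725 at 1 CPM, 221 and 173 at 50 CPM. So did the log2 ratios: of 32 named ones, 26 moved by more than the SD between animals at 1 CPM and 27 at 50 CPM, that of Cfap43 from 6.98 to 8.93 and 4.91, and none under the other settings. Under the other 6 settings the counts stayed within 1.5 times, and in all settings the 25 highest genes were at least 4-fold higher.

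Among the relations, Spearman's rho missed the threshold for the number of kept nuclei (-0.370), immature neuron-like (0.412) and cycling nuclei (0.311). Immature neuron-like nuclei missed it without the 2 farthest animals (0.187), and without female peer 3 r was 0.259 for them and 0.311 for cycling nuclei. The relation to astrocyte-like nuclei passed without the 2 farthest animals (r 0.379, adjusted p 0.0364) and after thinning (r 0.436, adjusted p 0.00796). That to nuclei with Slc17a7 changed sign in both (-0.00556 and -0.140). After thinning, cycling (r 0.530) and immature neuron-like nuclei (r 0.463) still passed. The cause was not tested. No setting called a gene between groups in members, DESeq2 and all left-out animals included, and a minimum of 10 members could not be run since no animal had more than 8. No paired analysis was possible because the labels give no number that pairs animals. The 110 members held 246769 UMIs. The expression test used the 95 of them in the 18 animals with at least 3 members, and there 108 genes could be tested between groups.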

Other observations

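Hcrt (ENSMOCG00000005402), which encodes the orexin precursor known from hypothalamic neurons, was chosen after its values were seen. It was at 231 ± 235 CPM (SD, n = 18, 0 to 850) in member nuclei, 0.352 CPM in other nuclei and 0.448 CPM in astrocyte-like nuclei. A UMI was present in 30 of 110 members, from 20 animals and with at most 4 such members in 1 animal. Members, 0.0591% of nuclei, held 35.9% of all Hcrt UMIs. In D1/D2 neuron nuclei, which were deeper (median 2374 against 1438 UMIs), 0.0174% had a UMI. Of the 23 nuclei that met the sum of the rule but held an absence gene, 12 had an Hcrt UMI. Of the 17 nuclei with at least 4 rule UMIs from fewer than 3 genes, 2 had one, and of the 8 with 3 UMIs from 3 genes, 1 had one. Whether these UMIs come from Hcrt itself or from a neighbouring or overlapping transcript was not tested.

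The nuclei just outside the rule also held genes that the rule did not sum. Vim had a UMI in 85 of 110 members, in 19 of the 23 nuclei with an absence gene, in 9 of the 17 with fewer than 3 rule genes and in 7 of the 8 with 3 UMIs, against 3.39% of D1/D2 neuron nuclei. Prelp had one in 67, 19, 8 and 4 of them, against 0.445% of D1/D2 neuron nuclei. Tmem212 had one in 68, 13, 9 and 3, against 0.0174%. Such nuclei are few, 48 in these 3 sets, beside the 110 members.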
